A study of Mus musculus with 15 samples.

Results

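Cells that received a mutant granulocyte colony-stimulating factor receptor first and the RUNX1-ETO fusion second were compared with cells that carried the fusion alone. The comparison set the 3 libraries labelled CSF3R_FIRST against the 3 labelled RUNX1-ETO_ONLY, 6 of 15 libraries in all. All 15 libraries are strand-specific mRNA libraries from mouse cells whose line the labels name HoxB and whose cell type is labelled Blood. CSF3R_FIRST cells carried CSF3R with the change T618I and RUNX1-ETO, and RUNX1-ETO_ONLY cells carried RUNX1-ETO. Each other group also had 3 libraries. EMPTY cells held control vectors, CSF3R_ONLY cells held CSF3R-T618I, and RUNX1-ETO_FIRST cells held both alleles with the fusion introduced first. By design, the 2 groups compared differed in the presence of the receptor and in what the cells carried when the fusion arrived. Levels of Runx1 and Runx1t1 also differed, as given below. These differences cannot be told apart within the comparison. The labels give neither the vector and its promoter, nor the time between the alleles, nor whether replicates were separate cultures, so a p-value measures the spread between these libraries, which may be technical.

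The granulocyte colony-stimulating factor receptor signals through Janus kinases to STAT3 and STAT5, and through the RAS and ERK cascade, and drives granulocyte progenitors to divide and mature. T618I lies close to the membrane and lets the receptor signal without its ligand; it is the typical mutation of chronic neutrophilic leukaemia. RUNX1-ETO joins the DNA-binding domain of RUNX1, a master regulator of blood cell formation, to the co-repressor ETO (the product of Runx1t1), and is the defining fusion of one class of acute myeloid leukaemia, in which it holds back granulocyte maturation.

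Total counts were 17919315 to 18068091 in CSF3R_FIRST and 17834284 to 18178292 in RUNX1-ETO_ONLY. Levels below are CPM, counts scaled to a common library total and by TMM factors, which were 0.921 to 0.938 in CSF3R_FIRST and 1.07 to 1.09 in RUNX1-ETO_ONLY. Mitochondrial transcripts, of which 0 of 9 tested passed the test given next, took 1.27% to 1.89% of the counts in CSF3R_FIRST and 1.90% to 2.14% in RUNX1-ETO_ONLY. The first principal component of the 6 libraries held 82.3% of the variance and separated the groups. The second held 6.72% and set replicate 3 of both groups apart. In these libraries long transcripts were low for their group. The Spearman correlation across genes of exon length with the deviation from the group's mean log2 CPM was -0.387 in CSF3R_FIRST and -0.452 in RUNX1-ETO_ONLY. It was 0.186 to 0.311 in the others, which follows in part from the negative values, since deviations within a group balance out. Results are given with all 6 libraries. An alternative fit left out replicate 3 of these groups and the other libraries with few long transcripts, EMPTY replicate 3 and RUNX1-ETO_FIRST replicate 1.

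Of 13123 genes tested, 6325 (48.2%) passed an adjusted p of 0.05 by edgeR's quasi-likelihood test, 3276 (25.0%) higher and 3049 (23.2%) lower in CSF3R_FIRST. A rise or a fall below means such a call, and these 2 shares are the background for each list count. The gene lists were chosen with earlier results of these data known, so their counts are no separate evidence. Where 5 or fewer genes of a list were called in a direction, those named for that reason were chosen after their values were seen. The values of the groups did not overlap for 3703 genes (28.2%) that were higher and 3754 (28.6%) that were lower. Large changes were mostly rises: 1462 genes (11.1%) rose and 586 (4.47%) fell at least 2-fold. The median log2 fold change over all genes was -0.03. With library sizes alone in place of TMM, that median was -0.25 and the calls were 2397 higher and 5281 lower, so the near balance of directions rests on the scaling. Of the genes given below as not past, Cdk4, Cebpa, E2f1, Erg, Ms4a3, Nfkb1, Odc1, Rela and Rrm2 passed as lower with library sizes alone (log2 -0.23 to -0.48, edgeR adjusted p 0.000448 to 0.0478). Genes that fell had a median exon length of 5044 bases, those that rose 3810, and those that passed in neither direction 3813. In a bulk library, fewer cells of a type and less RNA per cell cannot be told apart, which holds for every result below.

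**Figure D1:**
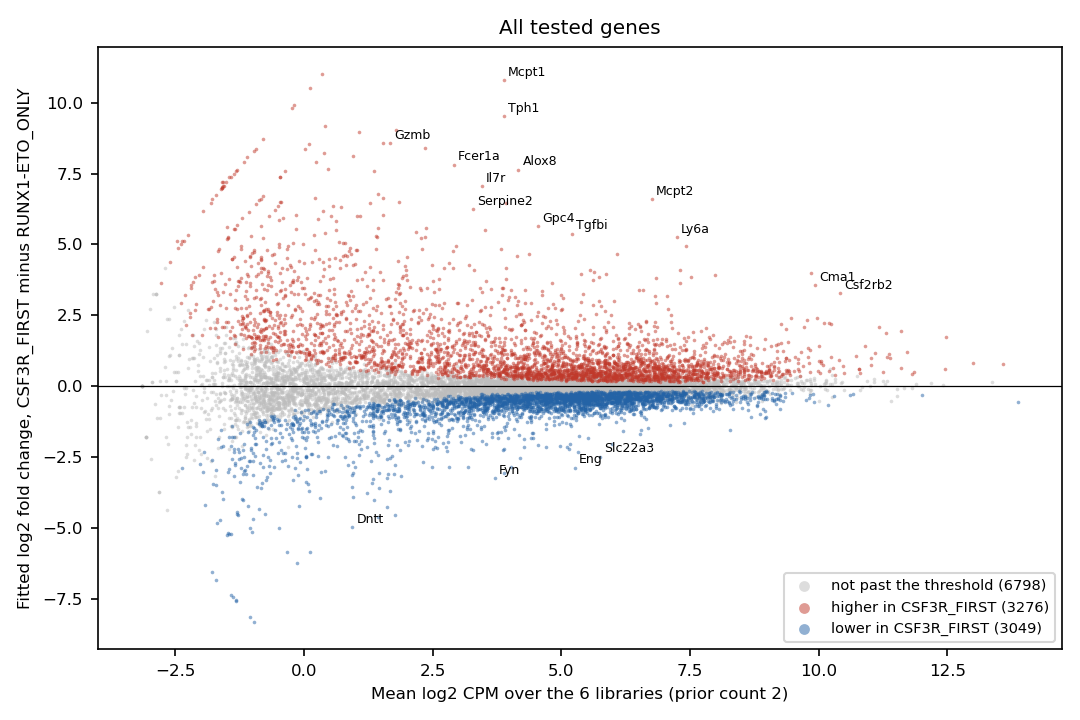
Mean log2 CPM over the 6 libraries (x axis) against the fitted log2 fold change, CSF3R_FIRST minus RUNX1-ETO_ONLY (y axis), for 13123 tested genes, with 3276 higher genes in red, 3049 lower genes in blue and the rest in grey. The rises reach further from 0 than the falls, with Mcpt1 at 10.79 and Fyn at -3.23 among well measured genes.

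The genes of the alleles were described first. Csf3r, the gene of the receptor, was lower in the cells that had received it. It stood at 430.0, 396 and 366 CPM in CSF3R_FIRST against 507, 536 and 530.1 CPM in RUNX1-ETO_ONLY, without overlap, a log2 change of -0.40 ± 0.0843 (SE, edgeR adjusted p = 0.00105). Its mean was 419.6 CPM in EMPTY and 621 CPM in CSF3R_ONLY, where it was higher than in EMPTY. The labels do not say whether reads of the introduced receptor were counted at the mouse gene, which therefore does not check the labels. Runx1t1, which had no counts in EMPTY and CSF3R_ONLY, stood at 812, 764 and 559 CPM in CSF3R_FIRST and at 439, 513 and 391 CPM in RUNX1-ETO_ONLY. The gene of the fusion partner was thus read in both groups labelled with the fusion. Its log2 difference was 0.67 ± 0.173 (edgeR adjusted p = 0.00765). Runx1 was at 747 ± 67.0 CPM (SD, n = 3) and 547 ± 29.5 CPM, a log2 difference of 0.45 ± 0.0944 (edgeR adjusted p = 0.00102), against 90.2 CPM in EMPTY. Both differences missed the threshold with library sizes alone (Runx1t1 0.45, edgeR adjusted p = 0.0514, and Runx1 0.23, edgeR adjusted p = 0.0653), and that of Runx1t1 did so without the filter on low counts (0.69, adjusted p = 0.0565).

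The 12 largest rises were led by genes nearly silent with the fusion alone. Mcpt1, a chymase of mucosal mast cells (chr14:56017971-56020384, mm10), stood at 536, 511 and 629.6 CPM in CSF3R_FIRST and at 0.357, 0.103 and 0.471 CPM in RUNX1-ETO_ONLY, a log2 change of 10.79 ± 0.524 (edgeR adjusted p = 1.9e-10). Tph1, the rate-limiting enzyme of serotonin synthesis outside neurons (chr7:46644641-46672537), was at 371, 369 and 381 CPM against 0.255, 0.616 and 0.628 CPM, a log2 change of 9.53 ± 0.173 (edgeR adjusted p = 5.17e-15). Il7r, the receptor chain for interleukin 7 and thymic stromal lymphopoietin (chr15:9505788-9530176), was at 120.2, 120.4 and 119 CPM against 0.866, 0.976 and 0.838 CPM, a log2 change of 7.06 ± 0.135. For each of these 3 genes every library of CSF3R_FIRST lay far above every library of RUNX1-ETO_ONLY. The other 9 of the 12 largest rises were Alox8 (log2 7.64), a lipoxygenase of arachidonic acid, Mcpt2 (6.59), another mast cell protease, Padi3 (6.47), a peptidylarginine deiminase, and Serpine2 (6.24), a secreted protease inhibitor. Then came Gpc4 (5.64), a cell surface heparan sulfate proteoglycan, Neo1 (5.51), the netrin and repulsive guidance receptor neogenin, and Tgfbi (5.38), a secreted matrix protein. Ly6a (5.26), the stem cell antigen Sca-1, was at 943 ± 105 CPM against 24.6 ± 2.69 CPM, and Tarm1 (4.94), an activating receptor of myeloid cells, at 951 ± 42.9 CPM against 31.0 ± 3.52 CPM.

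The largest falls were smaller, and their genes stood at moderate levels with the fusion alone. Fyn, a SRC family kinase (chr10:39368855-39565381), stood at 3.85, 4.13 and 4.61 CPM in CSF3R_FIRST and at 40.3, 38.0 and 39.9 CPM in RUNX1-ETO_ONLY, a log2 change of -3.23 ± 0.104 (edgeR adjusted p = 1.76e-12). Eng, the transforming growth factor beta co-receptor endoglin (chr2:32646595-32682669), was at 15.2, 14 and 13.5 CPM against 102, 101 and 108 CPM, a log2 change of -2.86 ± 0.108 (edgeR adjusted p = 1.01e-11). Its mean was 0.543 CPM in EMPTY, so the level of CSF3R_FIRST lay between those of EMPTY and RUNX1-ETO_ONLY. Slc22a3, a transporter that takes up organic cations such as histamine (chr17:12418960-12507704), was at 22.6, 23.4 and 22.2 CPM against 129.6, 130.0 and 119.9 CPM, a log2 change of -2.48 ± 0.0864 (edgeR adjusted p = 4.57e-12). None of these 3 genes had overlapping groups. The remaining falls were Pde3b (log2 -3.05), a phosphodiesterase that breaks down cyclic AMP, Deptor (-2.86), an inhibitor of the kinase mTOR, Aff3 (-2.84), a nuclear factor of the AF4 family, and Selenop (-2.52), a selenium carrier. The last were Mc5r (-2.31), a melanocortin receptor, Mndal (-2.24), of the interferon-inducible p200 family, Prkd3 (-2.23), a protein kinase D, Angpt1 (-2.21), the ligand of the receptor Tie2, and Nynrin (-2.21).

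**Figure D2:**
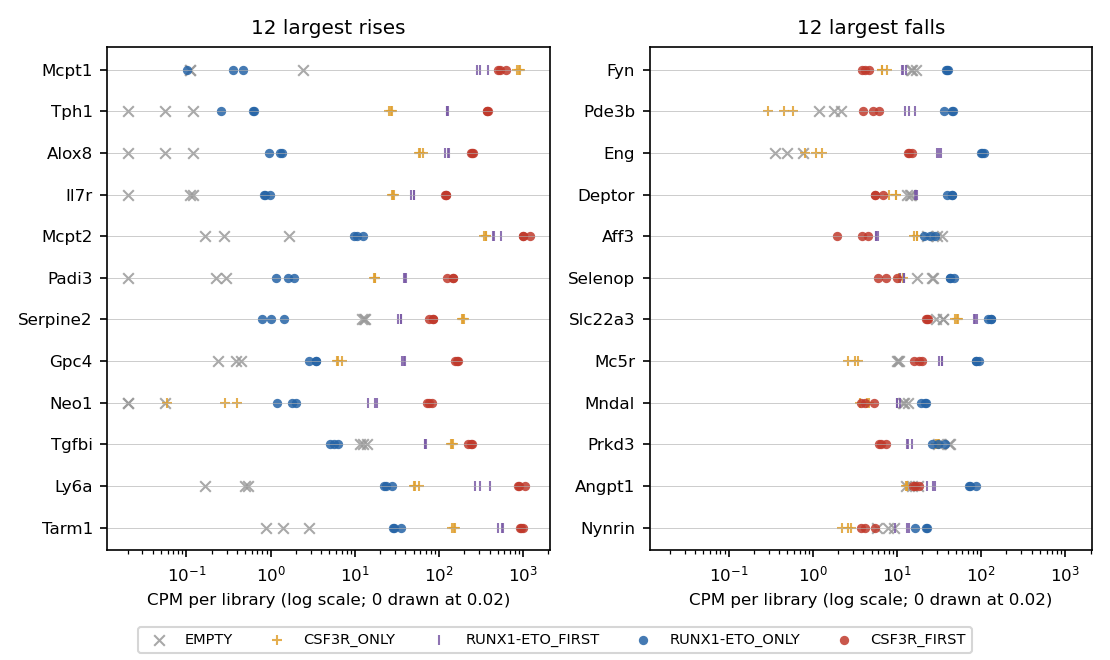
CPM per library on a log scale (x axis) of the 12 largest rises (left) and 12 largest falls (right), 1 point per library and 3 per group, with EMPTY as grey crosses, CSF3R_ONLY as orange plus signs and 0 drawn at 0.02. CSF3R_FIRST points (red) and RUNX1-ETO_ONLY points (blue) do not overlap for any of the 24 genes, and the mean of RUNX1-ETO_FIRST (purple) lies between theirs for each, for example 125 CPM for Tph1.

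Mast cell and basophil genes rose together. Mast cells store proteases, histamine and heparin in granules and release them when the high-affinity IgE receptor is crosslinked. Of 24 tested genes of this list 21 rose and 2 fell, against 25.0% and 23.2% of all genes, with a median log2 change of 1.94 against -0.03. The summed level of the list, which here and below includes listed genes too low to be tested, was 45392 to 52698 CPM in CSF3R_FIRST and 16293 to 17734 CPM in RUNX1-ETO_ONLY, and no list gene was at 0 in all 6 libraries. Fcer1a, the IgE-binding chain, was at 89.5, 98.3 and 119 CPM against 0.408, 0.411 and 0.524 CPM, a log2 change of 7.82 ± 0.194 (edgeR adjusted p = 1.76e-12). Gzmb, the granule protease granzyme B, was at 45.8, 48.5 and 50.4 CPM against 0.153, 0.205 and 0 CPM, a log2 change of 8.57 ± 0.426 (edgeR adjusted p = 2.48e-10), or 9.16 without RUNX1-ETO_ONLY replicate 2. Both genes were detected at most at trace level with the fusion alone. The following genes were named after their values were seen. Ms4a2, the beta chain of the IgE receptor, rose by 1.93 on the log2 scale from 97.0 ± 3.40 to 370.1 ± 11.3 CPM, and Hdc, which makes histamine, by 1.95 from 1569 ± 41.9 to 6071 ± 243 CPM. The tryptases Tpsb2 and Tpsab1 rose by 2.42 and 3.85, and the carboxypeptidase Cpa3 by 0.78, from 9429.8 ± 487 to 16230.3 ± 2167 CPM. Kit, the stem cell factor receptor that mast cells need, changed little, from 187 ± 5.10 to 219 ± 16.1 CPM (log2 0.23, edgeR adjusted p = 0.0259), and its call was lost with library sizes alone (adjusted p = 0.936) and without RUNX1-ETO_ONLY replicate 2 (0.065) or 3 (0.0753) or CSF3R_FIRST replicate 1 (0.121). The 2 falls were Hpgds (log2 -0.86), a prostaglandin D synthase, and Mrgprb2, the mast cell receptor for basic secretagogues in mice, which had 1 count in all CSF3R_FIRST libraries against 57 in RUNX1-ETO_ONLY, a ratio of 49.1 (95% counting interval 8.46 to 1971). Rab27b, which docks granules, did not pass (log2 0.33, edgeR adjusted p = 0.0654), though it did so in 4 alternatives (0.28 to 0.37).

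Many of these proteases lie side by side on chromosome 14. From Cma1 to Gzmb (chr14:55941451-56262260, mm10) 26 genes are annotated and 10 were tested, of which 9 rose and 0 fell. Cma1, a chymase, was at 3076, 3317 and 3740.4 CPM in CSF3R_FIRST against 269, 258 and 320.4 CPM, a log2 change of 3.58 ± 0.16 (edgeR adjusted p = 6.41e-11), and at 1.79 CPM in EMPTY. Mcpt4, the main chymase of connective tissue mast cells, was at 691, 693 and 712 CPM against 44.3, 45.4 and 55.8 CPM, a log2 change of 3.85 ± 0.137 (edgeR adjusted p = 5.77e-12). The groups did not overlap for either gene, and the locus genes other than Gzmb, Mcpt1 and Mcpt2 were named after their values were seen. Mcpt8, a basophil protease, rose by 2.21, Cma2 by 3.46, the pseudogene Mcpt-ps1 by 4.29 and Ctsg, the neutrophil protease cathepsin G, by 1.0. The processed pseudogene Gm5801 was at 0.399 and 0.551 CPM and did not pass (edgeR adjusted p = 0.476). Members of this cluster are similar in sequence, and the labels do not say what was done with reads that match several genes, so the split between neighbours is less certain than the rise of the cluster.

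**Figure D3:**
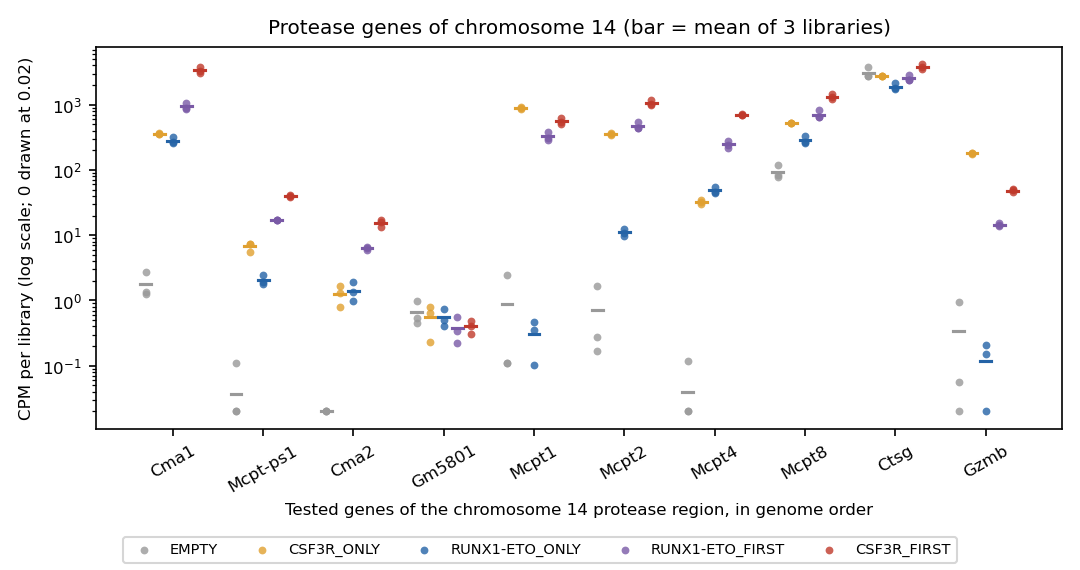
CPM per library on a log scale (y axis) of the 10 tested genes between Cma1 and Gzmb in genome order (x axis), with 3 points per group, a bar at the mean, EMPTY in grey, CSF3R_ONLY in orange, RUNX1-ETO_FIRST in purple and 0 drawn at 0.02. CSF3R_FIRST (red) lies above RUNX1-ETO_ONLY (blue) in all genes but Gm5801, from Ctsg at 3798 against 1894 CPM to Mcpt1 at 559 against 0.310 CPM.

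The promoters of 4 of these proteases show what the neighbours share. Each window covers 250 bases before to 50 after the RefSeq start (GRCm38.p6), is written 5′ to 3′ on the gene's strand, and has in capitals the RUNX letters TGTGGT or their reverse complement ACCACA. They are Mcpt1 (chr14:56017714-56018013, plus strand), Mcpt4 (chr14:56062261-56062560, minus), Cma1 (chr14:55944626-55944925, minus) and Gzmb (chr14:56262285-56262584, minus).
Mcpt1: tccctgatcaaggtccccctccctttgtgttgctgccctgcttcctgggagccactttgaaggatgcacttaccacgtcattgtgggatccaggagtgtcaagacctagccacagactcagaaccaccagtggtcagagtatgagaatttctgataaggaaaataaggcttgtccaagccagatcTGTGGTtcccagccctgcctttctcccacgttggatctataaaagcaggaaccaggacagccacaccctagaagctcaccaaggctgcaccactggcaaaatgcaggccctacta
Mcpt4: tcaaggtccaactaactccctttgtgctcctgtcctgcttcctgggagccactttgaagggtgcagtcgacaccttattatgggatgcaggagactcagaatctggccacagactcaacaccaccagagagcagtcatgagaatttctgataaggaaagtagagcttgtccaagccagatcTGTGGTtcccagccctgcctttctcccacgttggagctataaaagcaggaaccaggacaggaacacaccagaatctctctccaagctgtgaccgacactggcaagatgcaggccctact
Cma1: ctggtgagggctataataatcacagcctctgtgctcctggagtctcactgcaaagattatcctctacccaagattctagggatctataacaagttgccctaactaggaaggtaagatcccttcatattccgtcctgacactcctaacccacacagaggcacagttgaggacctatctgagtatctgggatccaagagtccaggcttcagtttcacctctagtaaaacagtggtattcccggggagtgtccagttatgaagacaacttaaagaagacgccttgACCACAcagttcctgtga
Gzmb: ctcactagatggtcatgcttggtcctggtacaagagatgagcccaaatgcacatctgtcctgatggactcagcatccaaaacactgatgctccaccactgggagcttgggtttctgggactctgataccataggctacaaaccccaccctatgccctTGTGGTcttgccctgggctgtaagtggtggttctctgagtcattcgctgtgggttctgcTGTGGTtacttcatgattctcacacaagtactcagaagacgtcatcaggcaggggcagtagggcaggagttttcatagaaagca
The windows of Mcpt1 and Mcpt4 were identical at 247 of 305 aligned columns (81.0%), and their longest shared run of 53 bases held the RUNX letters. Mcpt1 was at 0.310 CPM and Mcpt4 at 48.5 CPM with the fusion alone. All 6 protease windows searched in the cluster (these with Mcpt8 and Ctsg) held TGTGGT on either strand, and none held the GATA letters AGATAA, searched on both strands as well. No other spelling of the GATA letters was searched, and the windows of Mcpt1 and Mcpt4 shown above hold TGATAA. Of the 24 promoter entries for the mast cell list 13 (54.2%) held the RUNX letters, against 13% of the promoters of tested genes, and 7 (29.2%) held AGATAA, against 6.78%. These entries belong to 20 of the 24 tested genes of the list, of which 13 genes held the RUNX letters and 6 held AGATAA. Entries of similar neighbours, such as Mcpt1 and Mcpt4, are not independent, and the list was chosen with earlier results of these data known. Over the whole comparison the RUNX letters stood in 17.0% of the promoters of genes that rose at least 2-fold, 16.4% of those that fell at least 2-fold and 12.5% of those that did not pass, with 16.8% over all promoters in the table. A match of letters is no evidence of binding.

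Neutrophil granule genes rose as well, with a larger median change in the later list than in the primary granule list. Neutrophils make primary granules as promyelocytes and secondary and tertiary granules as they mature. Of 31 tested later granule and neutrophil genes 23 rose and 3 fell, with a median log2 change of 1.32, and their summed level was 4108 to 4782 CPM against 1584 to 1871 CPM. Adam8, a granule metalloprotease, was at 355, 328 and 330.5 CPM against 37.4, 35.9 and 38.8 CPM, a log2 change of 3.18 ± 0.0779 (edgeR adjusted p = 1.36e-13). Stfa2, a cysteine protease inhibitor of mouse neutrophils, was at 123, 141 and 176 CPM against 17.8, 21.7 and 22.6 CPM, a log2 change of 2.82 ± 0.213 (edgeR adjusted p = 3.23e-08). In both the groups were well apart. Mmp9, the gelatinase of tertiary granules, rose by 3.74 but only to 2.84 ± 0.569 CPM, far under its 51.6 CPM in CSF3R_ONLY (4.69 without RUNX1-ETO_ONLY replicate 2). Mmp8, neutrophil collagenase, rose by 2.75, and S100a8 and S100a9, the subunits of calprotectin, by 1.02 and 1.32; these 3 were named after their values were seen. Abundant secondary granule genes did not pass: Ngp was at 74.8 ± 11 against 66.0 ± 5.74 CPM and Chil3 at 76.0 ± 8.12 against 72.4 ± 7.39 CPM, while Ngp reached 1706 CPM in CSF3R_ONLY. Without the libraries with few long transcripts Ngp passed as higher (log2 0.15, edgeR adjusted p = 0.0445). The 3 falls were Fcnb (log2 -2.49), a ficolin of immature myeloid cells, Ly6c2 (-0.68) and Clec4d (-0.38), the last lost without CSF3R_FIRST replicate 1 (edgeR adjusted p = 0.0861).

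Primary granule genes moved less. Of 10 tested 7 rose and 1 fell, with a median of 0.75, and the summed level was 20679 to 21486 CPM against 22193 to 24082 CPM, since most of it was Mpo. Mpo, myeloperoxidase, was the fall, at 13197, 12197 and 11878 CPM against 18456, 17608 and 18607 CPM, a log2 change of -0.55 ± 0.089 (edgeR adjusted p = 0.0001), without overlap. The largest rises were Serpinb1a (log2 1.41), an inhibitor of neutrophil proteases, and Ctsc (1.27), the dipeptidyl peptidase that activates granule proteases. Elane, neutrophil elastase, was at 303 ± 36.8 against 199.6 ± 30.7 CPM (log2 0.60, edgeR adjusted p = 0.0167), far under 1917 CPM in EMPTY, and its call was lost with library sizes alone (adjusted p = 0.0699), without the filter on low counts (0.0608) and without RUNX1-ETO_ONLY replicate 1 (0.065), replicate 2 (0.0652) or CSF3R_FIRST replicate 3 (0.062). Prtn3, proteinase 3, and Ms4a3, a marker of granulocyte and monocyte progenitors, did not pass (log2 0.33 and -0.26). Prtn3 passed as higher in 7 alternatives (0.33 to 0.45), among them DESeq2, limma-voom, the replicate block and the fit without the libraries with few long transcripts (0.42, edgeR adjusted p = 1.23e-08). Ms4a3 passed as lower in 4 (-0.25 to -0.48), that fit among them (-0.27, edgeR adjusted p = 6.55e-05).

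Of 18 tested monocyte and macrophage genes 17 rose and 1 fell, with a median of 1.74. Their summed level was 2337 to 2585 CPM against 922 to 1006 CPM, and of 21 listed genes Ly86 had no counts. Lgals3, galectin 3, was at 55.3, 56.4 and 56.5 CPM against 3.87, 3.39 and 4.87 CPM, a log2 change of 3.79 ± 0.187 (edgeR adjusted p = 2.09e-10). Mrc1, the mannose receptor, and Ctss, cathepsin S, rose by 3.43 and 2.88 but stayed at 4.52 and 4.59 CPM. Named after their values were seen, Csf1r, the macrophage growth factor receptor, rose by 1.68 to 29.0 ± 1.27 CPM, and Ccr2, the chemokine receptor of inflammatory monocytes, was the fall, from 85.6 ± 7.33 to 24.4 ± 1.99 CPM (log2 -1.81, edgeR adjusted p = 3.88e-09). Of 5 tested antigen presentation genes 4 rose and 0 fell: H2-Ab1 by 2.82 to 8.04 CPM, H2-DMb1 by 1.98, Itgax by 1.54 and Cd74 by 1.43, while H2-Aa, H2-Eb1 and Siglech had no counts in any of the 6 libraries.

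Markers of other lineages were low or moved both ways. Of 6 tested eosinophil genes 2 rose, Prg2 (log2 2.03) and Prg3 (3.81), both granule major basic proteins, and 2 fell, the interleukin 5 receptor Il5ra (-1.15) and Siglecf (-0.96); their sum was 46.4 to 55.6 CPM against 69.9 to 75.2 CPM, with Ear1 and Ear2 at 0. Without RUNX1-ETO_ONLY replicate 3 the change of Prg3 was 4.43. Of 8 erythroid genes 4 rose and 2 fell, with a sum of 121 to 132 CPM against 252 to 307 CPM and Slc4a1 and Ermap at 0. The falls were Tfrc (-1.36), the transferrin receptor, and Car2 (-1.30); the rises were Klf1 (2.19), Epor (1.72), Hbb-bt (2.56) and Hba-a1, which had no counts in RUNX1-ETO_ONLY and was at least 4.01-fold higher against a floor of 3 counts per library. Among 10 megakaryocyte genes 4 rose and 3 fell, against 25.0% and 23.2% of all genes. The falls included Gfi1b (-1.33), a transcriptional repressor of that lineage, and the integrin chain Itgb3 (-1.20), and Vwf, the von Willebrand factor (2.15), Ppbp (2.2), Itga2b (0.78) and Fli1 (0.23) rose. Vwf was at 3.0 without the libraries with few long transcripts, and Fli1 lost its call with library sizes alone (edgeR adjusted p = 0.931). Lymphoid genes other than Il7r fell where they changed: Dntt, terminal transferase, was at 0.322 ± 0.312 against 10.1 ± 0.770 CPM (log2 -4.95, or -6.0 without CSF3R_FIRST replicate 3), with Cd79b (-2.26) and Nkg7 (-1.34), while Pax5, Cd3e, Cd3g and Rag1 were at 0. Of 3 tested stromal and epithelial genes Col1a1 (3.41) and Thy1 (1.39) rose and Pdgfrb fell (-0.38, lost without CSF3R_FIRST replicate 3, edgeR adjusted p = 0.0745). The 14 listed genes of these types summed to 72.2 to 82.3 CPM against 86.9 to 96.0 CPM, and Col1a2, Col3a1, Dcn, Lum, Kdr and Krt8 were at 0.

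Stem and progenitor genes split, 8 of 22 rising and 7 falling with a median of -0.02, against 25.0% and 23.2% of all genes. Beside Ly6a the rises included Mycn (log2 3.66), to 2.91 CPM, and Hoxb8 (1.47), a homeobox gene that holds progenitors undifferentiated. Hoxb8 also stood at 324, 374 and 179 CPM in EMPTY. The labels name the line HoxB, and reads of an introduced copy, if there is one, cannot be told from those of the cells' own gene. Sox4, a transcription factor that holds back differentiation, was at 56.3, 51.7 and 48.1 CPM against 171, 156 and 168 CPM, a log2 change of -1.66 ± 0.0943 (edgeR adjusted p = 1.08e-09), without overlap. Cd34 fell by 0.55 and Flt3, a cytokine receptor of early progenitors, by 1.08; Sox4, Cd34, Flt3 and Hoxb8 were named after their values were seen. Erg and Tnfrsf1b, abundant members of the stem and the receptor lists, did not pass (log2 -0.08 and 0.00).

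Transcription factors of granulocytes and monocytes rose in 13 of 17 tested genes and fell in 1, with a median of 0.65. Id2, an inhibitor of E proteins, was at 169.6, 177 and 192 CPM against 12.1, 14.7 and 13.2 CPM, a log2 change of 3.75 ± 0.0969 (edgeR adjusted p = 2.2e-13). Klf2 rose by 3.16, to 51.1 ± 0.980 CPM. Irf8, which directs monocyte over granulocyte fate, was the only fall of the list, at 7.16, 7.67 and 8.0 CPM against 22.2, 24.1 and 24.7 CPM, a log2 change of -1.64 ± 0.107 (edgeR adjusted p = 5.35e-09). Cebpa, needed to start granulocyte differentiation, did not pass at 372 ± 19.4 against 376 ± 15 CPM, and Cebpe, which drives secondary granules, rose by 0.95. Of 11 GATA and mast cell factors 6 rose and 1 fell. Gata1 was at 137, 127 and 146 CPM against 40.8, 39.9 and 45.5 CPM, a log2 change of 1.70 ± 0.118 (edgeR adjusted p = 1.18e-08). Gata2, needed for mast cells and stem cells, was at 1521, 1466 and 1307 CPM against 623, 595 and 549.9 CPM, a log2 change of 1.28 ± 0.0836 (edgeR adjusted p = 5.46e-09). Both GATA factors were higher in all 3 libraries, and Lmo2, their adaptor, was the fall (-1.52). The list had 4 falls with library sizes alone.

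Of 18 genes of the RUNX and ETO complex 3 rose and 5 fell, against 25.0% and 23.2% of all genes. Beside Runx1 and Runx1t1 the corepressor Tle1 rose by 1.09, and the histone deacetylase Hdac2 fell by 0.59. The other falls were the binding partner Cbfb (-0.23), the paralog Runx2 (-0.54), the corepressor Sin3a (-0.48) and the E protein Tcf3 (-0.56). These counts moved with the processing: 9 fell and 5 rose without the libraries with few long transcripts, 8 fell with limma-voom, 10 fell and 1 rose with library sizes alone, and 3 fell without the filter on low counts or RUNX1-ETO_ONLY replicate 1. Without that filter Cbfb (edgeR adjusted p = 0.0968) and Sin3a (0.126) lost their calls. The call of Cbfb was also lost without RUNX1-ETO_ONLY replicate 1, and that of Sin3a without RUNX1-ETO_ONLY replicate 1 or 2 or CSF3R_FIRST replicate 2 or 3 (edgeR adjusted p 0.0716 to 0.119). Genes that the literature on human cells describes as raised by RUNX1-ETO rose in 6 of 8, led by Sphk1 (log2 4.94), which makes sphingosine 1-phosphate, and Ptgs2 (1.88). Those described as lowered also rose in 5 of 8, led by Lat2 (1.28), an adaptor of IgE receptor signalling, and Ctsg (1.0), or in 3 with library sizes alone or without RUNX1-ETO_ONLY replicate 1 or 2 or CSF3R_FIRST replicate 3. Both groups carry the fusion, with Runx1 and Runx1t1 higher in CSF3R_FIRST by the main fit, so neither list tests its effect here. Pou4f1, a factor typical of this leukaemia, rose by 0.90 (edgeR adjusted p = 0.0405) at 2.11 ± 0.894 against 1.13 ± 0.174 CPM, and missed the threshold in 8 alternatives, among them each of RUNX1-ETO_ONLY replicates 1, 2 and 3 and CSF3R_FIRST replicates 2 and 3 left out (adjusted p 0.0612 to 0.16).

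Cytokine receptors rose in 18 of 26 tested genes and fell in 5, with a median of 0.65. Csf2rb2, the beta chain of the mouse interleukin 3 receptor, was at 4722, 4259.7 and 3822 CPM against 453, 471 and 401 CPM, a log2 change of 3.27 ± 0.136 (edgeR adjusted p = 2.74e-11). Its paralog Csf2rb, the common beta chain, rose by 1.89 to 4908 ± 599 CPM, and Il4ra, the interleukin 4 receptor, by 2.53; both were named after their values were seen. Reads shared by the 2 beta chains make each level less certain. The decoy receptor Il1r2 rose by 4.09. The falls included Il5ra, Flt3, Il6ra (log2 -0.78) and Csf3r.

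Feedback genes of cytokine signalling rose. Of 27 tested JAK-STAT response genes 18 rose and 3 fell, with a median of 0.64. Socs3, the feedback inhibitor that binds this receptor (chr11:117966079-117970047), was at 361, 364 and 318 CPM against 54.9, 53 and 49.5 CPM, a log2 change of 2.73 ± 0.0878 (edgeR adjusted p = 1.76e-12). Cish, a STAT5 target (chr9:107296026-107302784), was at 197, 193 and 197 CPM against 67.2, 61.5 and 58.5 CPM, a log2 change of 1.65 ± 0.0703 (edgeR adjusted p = 3.86e-11). Neither gene overlapped between groups; both were named after their values were seen. Saa3, an acute phase protein (4.16), Socs1 (3.39), Osm, oncostatin M (3.0), and Gadd45g (2.94) were the largest rises. The falls were Ccnd2 (log2 -2.11), cyclin D2, Stat5a (-0.61) and Myc (-0.40), and Stat3 did not pass (0.11, edgeR adjusted p = 0.299), though it did so as higher without the libraries with few long transcripts (0.16, edgeR adjusted p = 0.0126).

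The promoters of Socs3 (chr11:117969317-117969616, minus strand) and Cish (chr9:107296409-107296708, plus strand) carry the STAT letters TTCNNNGAA, which read the same on both strands and are given here in capitals in the same 300-base window.
Socs3: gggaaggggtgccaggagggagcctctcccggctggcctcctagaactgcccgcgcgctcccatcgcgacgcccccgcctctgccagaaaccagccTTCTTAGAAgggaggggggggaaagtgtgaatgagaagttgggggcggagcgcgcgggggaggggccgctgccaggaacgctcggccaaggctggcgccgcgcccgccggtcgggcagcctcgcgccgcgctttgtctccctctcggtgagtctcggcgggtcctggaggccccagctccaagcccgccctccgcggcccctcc
Cish: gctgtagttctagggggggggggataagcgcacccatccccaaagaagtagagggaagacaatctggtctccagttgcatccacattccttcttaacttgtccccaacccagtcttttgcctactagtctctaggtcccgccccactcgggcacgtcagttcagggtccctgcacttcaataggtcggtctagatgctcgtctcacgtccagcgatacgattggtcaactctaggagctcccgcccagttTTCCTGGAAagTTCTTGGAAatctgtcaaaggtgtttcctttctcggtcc
Cish held the letters at 2 places and Socs3 at 1. Of the 28 promoter entries for the JAK-STAT list 4 (14.3%) held them, against 6.95% of the promoters of tested genes.

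All 19 tested secreted cytokines and chemokines rose, with a median of 1.94. Csf1, the macrophage growth factor, was at 1057, 1014 and 889.7 CPM against 64.6, 68.0 and 60.8 CPM, a log2 change of 3.94 ± 0.12 (edgeR adjusted p = 1.35e-12), the groups lying more than 10-fold apart. Il1rn, the interleukin 1 receptor antagonist, rose by 4.27 to 23.7 ± 3.21 CPM and Il1a by 4.12 to 2.51 ± 0.206 CPM. Il6 rose by 2.10 to 102 ± 11.3 CPM and Ccl2, a monocyte attractant, by 1.98 to 66.2 ± 5.24 CPM; these 2 were named after their values were seen. Of 16 NF-kB subunits, targets and feedback genes 12 rose and 0 fell, with a median of 0.70: Ptgs2, Bcl3 (log2 1.65), Relb (1.45) and Icam1 (1.34) rose, and Nfkb1 and Rela did not pass (-0.01 and -0.11). ERK response genes rose in 10 of 21 and fell in 3, with a median of 0.08, Ier3 (2.52) and Fosl2 (1.84) rising and Spry1 (-1.57) and Spred1 (-0.29), inhibitors of the cascade, falling with Myc. The falls numbered 7 with library sizes alone. Spred1 lost its call without RUNX1-ETO_ONLY replicate 1 (edgeR adjusted p = 0.0814) or CSF3R_FIRST replicate 3 (0.0695). Interferon response genes rose in 10 of 25 and fell in 8, against 25.0% and 23.2% of all genes, with a median of 0.34. Zbp1, a sensor of nucleic acids, rose by 2.65 and Oasl1 fell by 2.87, to 0.10 CPM. Of 6 Ifitm genes 4 rose and 1 fell; Ifitm1 was at 314, 319 and 405 CPM against 12.9, 11.3 and 16.5 CPM (log2 4.67 ± 0.238, edgeR adjusted p = 3.3e-10) and at 338 CPM in EMPTY, and similar family members may share reads.

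Genes of proliferation were lower. DNA replication genes fell in 22 of 23 tested and rose in 0, with a median log2 change of -0.62, and their sum was 2595 to 2743 CPM against 4003 to 4207 CPM. Pole, the catalytic subunit of DNA polymerase epsilon, was at 76.7, 70.5 and 54.2 CPM against 142, 167 and 141 CPM, a log2 change of -1.16 ± 0.133 (edgeR adjusted p = 3.12e-06). Mcm7, of the replicative helicase and named after its values were seen, was at 252, 255 and 236 CPM against 427, 409.8 and 442 CPM, a log2 change of -0.78 ± 0.07 (edgeR adjusted p = 2.16e-07). Every library of CSF3R_FIRST lay below every library of RUNX1-ETO_ONLY for these genes. Pold1 (-0.83) and Rfc3 (-0.78) fell likewise, and Rrm2 did not pass (-0.06). Mitosis genes fell in 21 of 22 and rose in 0, with a median of -0.46 and a sum of 2514 to 2617 CPM against 3612 to 3796 CPM. Aurkb, the kinase of the chromosomal passenger complex, was at 80.7, 79.6 and 79.7 CPM against 115, 119 and 134 CPM, a log2 change of -0.62 ± 0.0801 (edgeR adjusted p = 1.17e-05), and Kif11, a spindle motor, fell by 0.72. Mki67, the proliferation marker Ki-67, was at 316, 339.8 and 252 CPM against 495, 731 and 398 CPM (log2 -0.84, edgeR adjusted p = 0.0404); RUNX1-ETO_ONLY replicate 2 was high, without it the change was -0.56 (adjusted p = 0.199), and the call was lost in 7 alternatives in all, each other left-out library of the 6 except RUNX1-ETO_ONLY replicate 3 among them (adjusted p 0.0596 to 0.144).

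Regulators of G1 moved both ways, 6 of 18 rising and 5 falling with a median of -0.14, against 25.0% and 23.2% of all genes. Inhibitors of cyclin-dependent kinases rose, Cdkn1a from 172 ± 5.61 to 537 ± 32.0 CPM (log2 1.64 ± 0.1, edgeR adjusted p = 2.59e-09) and Cdkn2d from 19.1 ± 0.940 to 64.8 ± 6.30 CPM (1.76). Cyclin D2, Ccnd2, was at 13.7, 16.1 and 15.5 CPM against 70.0, 69.4 and 55.8 CPM, a log2 change of -2.11 ± 0.107 (edgeR adjusted p = 3.09e-10), while Cdk4 and E2f1 did not pass (-0.25 and -0.13). Cdk4 passed as lower in 4 alternatives, among them limma-voom and the fit without the libraries with few long transcripts (-0.18, edgeR adjusted p = 0.00377). Ribosome biogenesis and MYC target genes fell in 16 of 20 and rose in 0, with a median of -0.45; Polr1b, a subunit of RNA polymerase I, fell by 0.74 and Dkc1, a nucleolar pseudouridine synthase, by 0.63, and Srm did not pass (0.02). Of 15 p53 response genes 11 rose and 3 fell, with a median of 0.39, Fas (2.56) and Zmat3 (1.16) among the rises and Phlda3 (-0.92), Aen (-0.53) and Perp (-0.30) the falls. Phlda3 lost its call without RUNX1-ETO_ONLY replicate 3 (edgeR adjusted p = 0.0642) or CSF3R_FIRST replicate 2 (0.0829). BCL2 family genes rose in 8 of 13 and fell in 2; Bcl2 fell by 1.13 and Mcl1 rose by 0.64, both inhibitors of cell death, the other fall was Bnip5, and Bmf, which promotes it, rose by 1.31. With library sizes alone the rises were 6 for p53 genes and 2 for BCL2 genes, and the falls of G1 genes 10, and without RUNX1-ETO_ONLY replicate 1 the rises of BCL2 genes were 5.

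**Figure D4:**
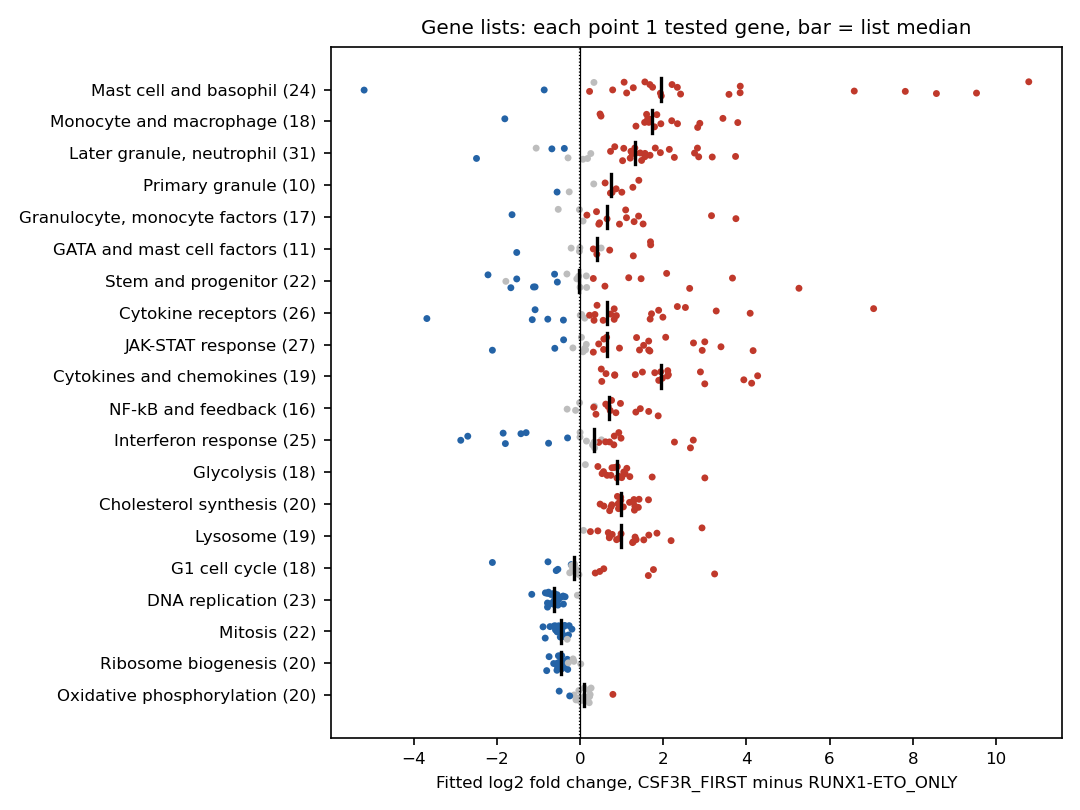
Fitted log2 fold change, CSF3R_FIRST minus RUNX1-ETO_ONLY (x axis), for each tested gene of 20 lists (rows, with the number tested), coloured red for a rise, blue for a fall and grey for neither, with a bar at the list median and a dotted line at the median of all genes, -0.03. DNA replication, mitosis and ribosome biogenesis lie left of 0 with medians of -0.62, -0.46 and -0.45, and the cell type, cytokine, glycolysis, cholesterol and lysosome lists lie to the right.

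Metabolic genes rose in several pathways. Glycolysis genes rose in 17 of 18 and fell in 0, with a median of 0.89 and a sum of 35847 to 38240 CPM against 18421 to 21566 CPM. Pkm, pyruvate kinase, was at 3935, 3859 and 3940.5 CPM against 1699, 1753 and 1932 CPM, a log2 change of 1.12 ± 0.0847 (edgeR adjusted p = 2.98e-08). Aldoc, an aldolase (3.0), Slc16a3, the lactate exporter (1.73), and Aldoa (1.20) rose, and Pdk1, which keeps pyruvate from the mitochondria, did not pass (0.13). Cholesterol synthesis genes rose in 20 of 20, with a median of 0.98. Hmgcs1, which makes the substrate of the rate-limiting step, was at 249, 266 and 252 CPM against 103, 93.7 and 94.1 CPM, a log2 change of 1.40 ± 0.0766 (edgeR adjusted p = 7.29e-10), without overlap, and Mvd (1.64), Msmo1 (1.42) and Fdft1 (1.32) rose with it. Lysosome genes rose in 18 of 19 and fell in 0, with a median of 0.99 and a sum of 8871 to 9026 CPM against 3509 to 3841 CPM. Ctsd, cathepsin D, was at 2565, 2526 and 2648 CPM against 558, 532 and 609 CPM, a log2 change of 2.19 ± 0.0963 (edgeR adjusted p = 5.61e-11); Ctsl (2.93) and Ctsb (1.65) rose too, and Tfeb, a regulator of lysosome genes, did not pass (0.08). Endoplasmic reticulum and amino acid stress genes rose in 11 of 16 and fell in 2, with a median of 0.53, led by the cystine transporter Slc7a11 (1.19), the factor Xbp1 (1.11) and the chaperones Hspa5 and Hsp90b1 (both 1.04). The falls were Phgdh (-0.56) and Psat1 (-0.48), of serine synthesis. Nuclear genes of oxidative phosphorylation mostly did not pass, 1 rising and 2 falling of 20, Ndufa1 (0.79), Ndufa4 (-0.50) and Sdha (-0.25); with library sizes alone 8 fell, and 9 rose once the libraries with few long transcripts were left out. Ndufa4 lost its call without either of CSF3R_FIRST replicates 1 and 2 or of RUNX1-ETO_ONLY replicates 2 and 3, and without the filter on low counts (edgeR adjusted p 0.0578 to 0.138).

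Enzymes of arginine use rose from near 0. Arg1, arginase 1, was at 38.1, 39.7 and 47.1 CPM against 0.0510, 0.0513 and 0.209 CPM, a log2 change of 8.56 ± 0.315 (edgeR adjusted p = 7.79e-11), or 9.48 without RUNX1-ETO_ONLY replicate 3. Nos2, inducible nitric oxide synthase, which shares its substrate, was at 31.9, 27.6 and 28.5 CPM against 0.204, 0.924 and 0.890 CPM, a log2 change of 5.43 ± 0.21 (edgeR adjusted p = 1.3e-11). Arg1 was at 0.0576 CPM with the receptor alone and Nos2 at 206 CPM, so only Nos2 was high there. The whole list of 12 split, 5 rising and 4 falling, the falls being Ass1 (-0.82), which makes argininosuccinate, the arginine transporter Slc7a1 (-0.45), Amd1 (-0.46) and Sms (-0.34), with Odc1, the first enzyme of polyamine synthesis, not past (-0.15). Slc7a1 lost its call without RUNX1-ETO_ONLY replicate 1 or 2 or CSF3R_FIRST replicate 2 or 3, and without the filter on low counts (edgeR adjusted p 0.0664 to 0.128). Leukotriene and prostaglandin genes rose in 6 of 12 and fell in 2, Alox5, 5-lipoxygenase, from 27.3 ± 1.0 to 133 ± 4.94 CPM (log2 2.28 ± 0.0671, edgeR adjusted p = 9.73e-13) and Ptgs1 by 1.34. The falls were Hpgds and Ptges3 (-0.27), the latter lost without RUNX1-ETO_ONLY replicate 1 or 3 or CSF3R_FIRST replicate 1 or 2 (edgeR adjusted p 0.0569 to 0.0722). Of 7 phagocyte oxidase genes 6 rose, Cyba by 1.46 and Ncf1 by 0.75, while Cybb, the catalytic subunit, stayed at 3.06 ± 0.238 against 3.27 ± 0.207 CPM and was at 98.9 CPM in CSF3R_ONLY. Only 3 of these oxidase genes rose with library sizes alone. Adhesion genes rose in 15 of 21 and fell in 3, with Itga2, a collagen receptor chain (4.02), Itgb7 (2.30) and Itgam (1.56) among the rises and Itgb3, Itga4 (-0.66) and the junction protein Tjp1 (-1.56) the falls, which numbered 5 with library sizes alone. Plexins, neuropilins and semaphorins rose in 7 of 14 and fell in 5, against 25.0% and 23.2% of all genes. The largest rise was Nrp2 (7.91), at 11.1, 10.3 and 8.48 CPM against 0.102, 0 and 0 CPM, so its fold rests on few counts. Sema7a, at 1.14, 1.42 and 1.51 CPM against 0.102, 0 and 0.0524 CPM, came next, before Plxna1 (2.54). The falls were Plxdc2 (-2.14), Plxnb2 (-2.14), Sema4c (-1.31), Nrp1 (-1.17) and Plxdc1 (-0.68).

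The change with the fusion present was then set beside that of the receptor without it, CSF3R_ONLY minus EMPTY, which shares no library with it. In CSF3R_FIRST the receptor came before the fusion. The order of the alleles therefore cannot be told apart from the presence of the fusion in this contrast. Of the 3276 genes that rose 1707 also rose with the receptor alone, 52.1% of these rises and 65.2% of the 2617 with the receptor alone (19.9% of all genes). Of the 3049 that fell 941 also fell, 30.9% of these falls and 54.4% of the 1730 with the receptor alone (13.2%). Opposite calls were made for 149 genes that rose here and 206 that fell here. The difference between the 2 changes, tested as an interaction, passed for 3004 genes (22.9%), 1368 higher (10.4%) and 1636 lower (12.5%) in the fusion background. With library sizes alone the split was 1003 higher and 2725 lower, with the sum of calls at 3728. Without the libraries with few long transcripts it was 2181 higher and 2219 lower.

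**Figure D5:**
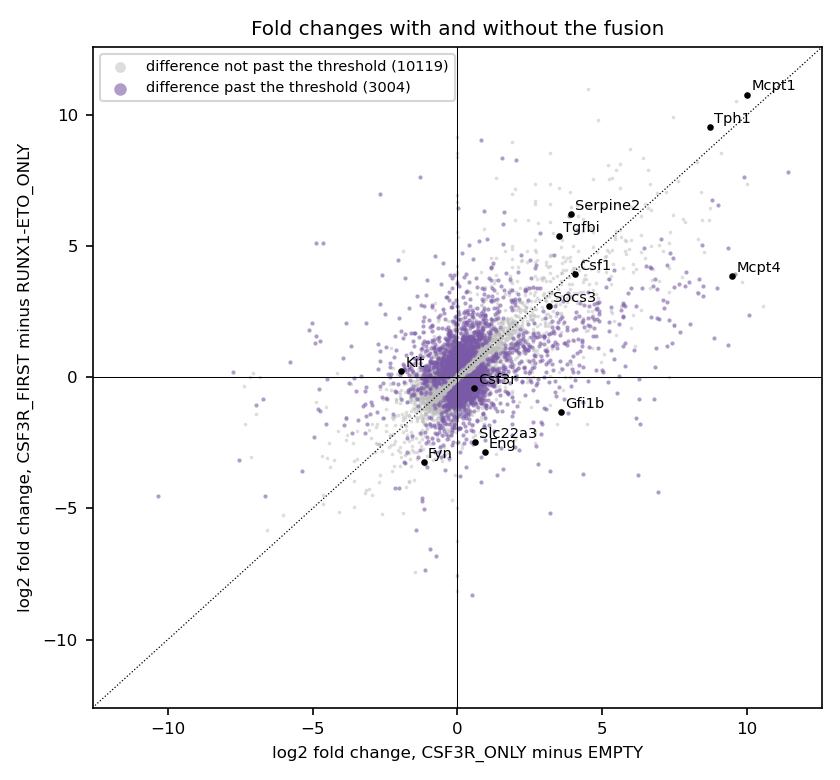
Fitted log2 fold change of CSF3R_ONLY minus EMPTY (x axis) against that of CSF3R_FIRST minus RUNX1-ETO_ONLY (y axis) for 13123 genes, with 3004 genes whose 2 changes differed past the threshold in purple and a dotted line of equal change. Mcpt1 and Csf1 lie near the line. Eng (at few counts without the fusion), Slc22a3 and Gfi1b rose without the fusion and fell with it, and Kit fell without it.

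Proliferation genes differed between these 2 changes. With the receptor alone 3 of 23 DNA replication genes rose and 2 fell, and 9 of 22 mitosis genes rose and 0 fell; the interaction was negative for 18 replication and 20 mitosis genes and positive for 0. Pole differed by -1.05 (edgeR adjusted p = 0.000685) and Kif11 by -1.09 (0.000223). With library sizes alone 19 and 21 genes were negative. Glycolysis, cholesterol and lysosome genes went the other way, with positive interactions for 14 of 18, 13 of 20 and 13 of 19 genes; Ctsd rose by 0.98 with the receptor alone and by 2.19 here, and Hspa5 by 1.04 here against a value of -0.12. Only 7 cholesterol genes were positive with library sizes alone. Ribosome biogenesis genes fell in 16 of 20 in each background, with 2 positive and 1 negative interactions. These few calls moved with the processing, to 0 positive and 5 negative with library sizes alone, 5 negative with limma-voom and 3 negative without the libraries with few long transcripts. Neutrophil genes of later granules rose in 28 of 31 with the receptor alone, and 19 had a negative interaction: Mmp8 rose by 5.72 there and 2.75 here, and Ngp by 2.46 there. Primary granule genes had a positive interaction in 7 of 10, Ctsg differing by 1.19 and Elane by 1.01, the latter not past without the filter on low counts (1.05, edgeR adjusted p = 0.0517). In the mast cell list 21 of 24 rose with the receptor alone as well, with 11 negative and 4 positive interactions; Kit, which fell by 1.94 with the receptor alone, differed by 2.17 (edgeR adjusted p = 7.14e-09) and Hdc by 0.96. Among the means of the 5 groups the highest was in CSF3R_FIRST for Cma1, Mcpt4, Tpsb2 and Hdc, but in CSF3R_ONLY for Mcpt1 and Gzmb. Mcpt1 was at 893 CPM in CSF3R_ONLY against 559 CPM in CSF3R_FIRST, and Gzmb at 181 CPM against 48.2 CPM. These examples were picked after their values were seen. Megakaryocyte genes had 4 negative interactions of 10, among them Gfi1b, which rose by 3.59 without the fusion and fell by 1.33 with it, and H2-Ab1 differed by 5.48, falling by 2.66 with the receptor alone. Fitted changes of genes with no or few counts in EMPTY, such as Mcpt4, depend on the prior count.

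Cells with both alleles in the other order gave the last set of values, on CSF3R_FIRST minus RUNX1-ETO_FIRST, which shares the CSF3R_FIRST libraries with the comparison above. Over all genes 11.1% were higher and 7.22% lower. Tph1 was at 125 CPM in RUNX1-ETO_FIRST, a log2 difference of 1.58 (edgeR adjusted p = 9.45e-08), and Gpc4 at 38.0 CPM, a difference of 2.11 (9.83e-10). Mcpt1 at 327 CPM did not pass (0.77, edgeR adjusted p = 0.081), though it did so in 3 alternatives, among them the fit that leaves out the libraries with few long transcripts (0.84). Fyn at 12 CPM and Slc22a3 at 85.3 CPM differed by -1.51 and -1.91, with edgeR adjusted p-values of 1.65e-07 and 1.59e-09. Of the mast cell list 20 of 24 were higher and 0 lower, of the later neutrophil list 23 of 31 and 0, and of the lysosome list 15 of 19 and 0. Replication and mitosis genes were lower for 15 of 23 and 18 of 22 and higher for 0 in either list. The count of replication genes was 8 without RUNX1-ETO_FIRST replicate 2 and 9 without CSF3R_FIRST replicate 1 or 3. Ccnd2 stood at 59.5 CPM in RUNX1-ETO_FIRST, near the 65.1 CPM of RUNX1-ETO_ONLY and above the 15.1 CPM of CSF3R_FIRST (difference -1.98, edgeR adjusted p = 1.31e-08). Ifitm1 was at 254 CPM and did not pass (0.45, edgeR adjusted p = 0.139), though it did so in 3 alternatives (0.43 to 0.44).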

How the data were processed

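The authors deposited raw read counts per gene symbol for 15 libraries, 52328 entries with no normalization. Per the submitters' processing notes Trimmomatic, STAR and DESeq2 were used with mm10; no versions, counting program, annotation or strand setting are named. The 1 entry with no gene name (0.0179% to 0.0305% of counts) was left out. The members and the 40 gene lists were chosen with earlier results of these data known. Genes passing edgeR's default expression filter (13123) were fitted with edgeR 4.0.16 (R 4.3.3) by robust quasi-likelihood on 5 group means of all 15 libraries with TMM scaling, 10 residual degrees of freedom and Benjamini-Hochberg adjustment over all genes. The method was tested on simulated data. SE is the log2 change over the square root of F. CPM were scaled by TMM, and log2 CPM used a prior count of 2. Intervals and floors cover counting error only. Named genes are Csf3r, Runx1, Runx1t1, the 12 largest rises and falls with mean log2 CPM of at least 3, no overlap and no clone name, and per list up to 4 largest changes and 2 abundant members not past. Some genes eligible by this rule are not reported here. Alternatives were DESeq2 1.42.0, limma 3.58.1 (voom), DESeq2 size factors, library sizes alone, no expression filter, a replicate block and left-out libraries. Replicates of a group differed by more than counting noise (chi-square per degree of freedom 2.37 to 68.7), so none was counted as a duplicate. Positions are from GENCODE M21 (mm10) and promoters from RefSeq (GRCm38.p6).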

Additional observations from a re-analysis of the deposited data

Results flagged for a closer look

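For 18 of the 27 genes named first (the allele genes and the 12 largest rises and falls), the difference between CSF3R_FIRST and RUNX1-ETO_ONLY departed from that between CSF3R_ONLY and EMPTY by edgeR's interaction test. These libraries are all different, so the 2 differences share none. The order of the alleles is part of the first difference and was not separated from it. Over all genes the interaction passed for 22.9%, with 10.4% positive and 12.5% negative. The 12 largest rises and falls were picked by their difference between CSF3R_FIRST and RUNX1-ETO_ONLY, which is part of the interaction. That choice favours an interaction in the direction of the change, so the counts below are no separate evidence of one.

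The interaction was positive for 3 rises. Serpine2 differed by 2.32 on the log2 scale, Tgfbi by 1.87 and Gpc4 by 1.49, the last past the threshold in all alternatives except the one without EMPTY replicate 1 (1.31, edgeR adjusted p = 0.0522). Each also rose with the receptor alone, by 3.92, 3.51 and 4.15.

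It was negative for 4 rises that were larger with the receptor alone: Mcpt2 (-2.41), Alox8 (-2.26), Ly6a (-1.79) and Tarm1 (-1.53). Mcpt2 and Alox8 had 0.707 and 0.0585 CPM in EMPTY, so their fitted change there depends on few counts.

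It was negative for 10 of the falls and for Csf3r. Eng (-3.81), Slc22a3 (-3.10) and Csf3r (-0.97) rose with the receptor alone, by 0.95, 0.62 and 0.57, and fell in the fusion background. Eng stood at 0.771, 0.500 and 0.360 CPM in EMPTY and 1.28, 1.10 and 0.807 CPM in CSF3R_ONLY, so its rise there rests on few counts. Deptor (-2.24), Fyn (-2.07), Aff3 (-2.07), Selenop (-1.44), Mndal (-0.69) and Mc5r (-0.56) had changes below 0 in both backgrounds, of which the larger was with the fusion. Angpt1 (-1.98) and Prkd3 (-1.90) had values of -0.23 and -0.33 with the receptor alone. The interaction of Mc5r was lost without the filter on low counts and without CSF3R_ONLY replicate 3 or CSF3R_FIRST replicate 3, and that of Mndal without CSF3R_ONLY replicate 2 (edgeR adjusted p 0.0515 to 0.0608).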

How the results depend on the processing

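The number of genes past the threshold (6325) lay between 5980 without the filter on low counts and 7702 without the 4 libraries with few long transcripts, and between 5511 and 6020 when 1 library was left out. DESeq2 gave 6405 and limma-voom 7473. Genes changed at least 2-fold numbered 1884 to 2331 against 2048. Interaction calls (3004) ranged from 2660 to 4400, and from 2466 to 3174 with 1 library left out. Replicate numbers paired the groups only in part, with correlations of same-numbered deviations of 0.0719, 0.0903 and 0.250. CSF3R_FIRST replicates 2 and 3 correlated best with the same number in RUNX1-ETO_ONLY, but CSF3R_FIRST replicate 1 correlated best with RUNX1-ETO_ONLY replicate 2 (0.140). The replicate block gave 6561, 2056 and 3222 calls. With library sizes alone the 5281 falls and the interaction's 2725 negative calls were over 1.5 times those with TMM. Of 3077 recalculated values for 220 named genes 55 lost the call, 28 gained it and 0 reversed. Counting depth was alike in all libraries, so precision is lowest for genes of few counts, such as Mmp9, Prg3 and Dntt.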
